A study of Homo sapiens with 3 samples.

Results

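Integrin alpha and beta subunits were examined in MDA-MB-231-Luc cells in which RRAS2 had been silenced. MDA-MB-231 is a long-established line of human breast carcinoma cells that lack hormone receptors and have a mesenchymal shape. RRAS2 encodes the RAS-related GTPase R-Ras2, also known as TC21. The genes were chosen by a list of 10 Ensembl gene identifiers, 6 for alpha subunits (ITGA2, ITGA3, ITGA4, ITGA5, ITGA6 and ITGAV) and 4 for beta subunits (ITGB1, ITGB4, ITGB5 and ITGB6). All 10 were found among the 24916 genes of the table, with the pairing of symbols and identifiers taken from that list. The 3 arrays form 1 group: one pool of cells transduced with a single lentiviral hairpin against RRAS2, sampled in exponential growth as biological replicates 1 to 3. Cells with a control hairpin are named in the series design and were not analysed here. No value below therefore measures an effect of RRAS2 loss, and the spread over the replicates leaves out differences between pools and between hairpins. With 1 group no test of significance was possible, and every value is a description of these arrays.

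Integrins are transmembrane receptors, each built from an alpha and a beta chain, that bind cells to extracellular matrix or to other cells and connect that contact to the cytoskeleton. The alpha chain largely sets which ligand is bound, and the beta tail recruits adaptors such as talin and kindlin. ITGB1 is the shared partner of many alpha chains and forms collagen, laminin and fibronectin receptors, whereas ITGB4 pairs only with ITGA6. Integrins of carcinoma cells are studied for their part in adhesion, migration and invasion, and R-Ras proteins are known as regulators of integrin-mediated adhesion.

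The values are RMA expression values, read as log2, the scale on which RMA gives its output, since the table does not name one. A difference of signal between genes also holds the difference between their probes, so levels of separate subunits are not ranked. Each signal is placed only against its own array, whose median over all genes was 6.80 to 6.84 and whose 90th percentile was 10.54 to 10.56. The median divides brighter from dimmer signals and is not a measured background. Array control probes and markers of the cell line were not used, because no other row could be paired with a gene symbol.

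Most of the subunits gave bright signals and ITGA4 and ITGB6 gave dim ones, with no subunit changing side of the array median between replicates. Of the 10 members, 8 lay above the array median on all 3 arrays, against 48.6% of all genes. On all 3 arrays 6 of the 10 lay above the 90th percentile (ITGA2, ITGA3, ITGA5, ITGA6, ITGB1 and ITGB5), against 9.32% of all genes. ITGB4 passed the 90th percentile on 2 arrays and ITGAV on none. The list was drawn up with earlier results of these data known, so these shares describe the listed genes.

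**Figure D1:**
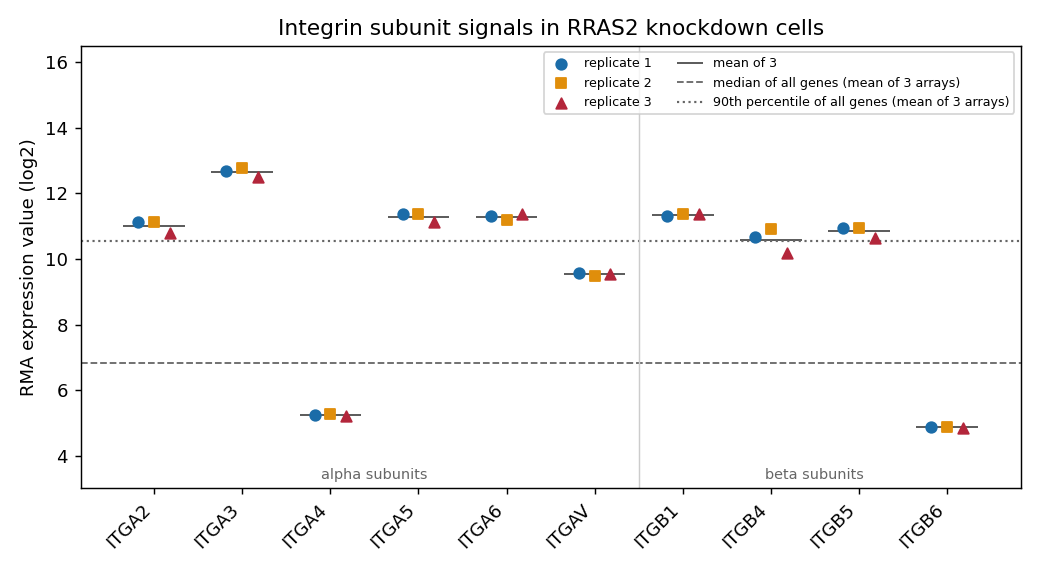
RMA expression value (log2, vertical axis) of each integrin subunit gene on each of the 3 arrays, with alpha subunits left and beta subunits right. Points are replicates, short bars are means of 3, and the dashed and dotted lines are the median and the 90th percentile of all genes; ITGA4 and ITGB6 lie below the median line on every array.

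ITGA2 (ENSG00000164171), the alpha chain of a collagen receptor formed with ITGB1, was at 11.12 in both replicates 1 and 2 and at 10.78 in replicate 3. The first 2 arrays were nearly alike, and replicate 3 was 1.27-fold below their mean. ITGA5 (ENSG00000161638), the alpha chain of the classical fibronectin receptor, was at 11.37, 11.38 and 11.13 in replicates 1, 2 and 3. It repeated that order, with replicate 3 lower by 0.24 log2 units than replicate 1 and by 0.25 than replicate 2. Their means were 11.01 ± 0.20 for ITGA2 and 11.29 ± 0.14 for ITGA5 (SD, n = 3 each).

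The sequences around the annotated starts of ITGA2 and ITGA5 are shown as examples from the bright genes that were lowest in replicate 3. They come from RefSeq (GRCh38.p14) and run 5′ to 3′ on the gene's strand, from 250 bases before the annotated start through the first 30 bases after it. ITGA2 is on chr5:52989102-52989381 (plus strand) and ITGA5 on chr12:54419237-54419516 (minus strand). Capitals mark matches on either strand to GGGCGG (the GC box of Sp-family factors), TGANTCA (AP-1) or TATAAA (the TATA box); no marked matches of different motifs overlap in these windows.
ITGA2: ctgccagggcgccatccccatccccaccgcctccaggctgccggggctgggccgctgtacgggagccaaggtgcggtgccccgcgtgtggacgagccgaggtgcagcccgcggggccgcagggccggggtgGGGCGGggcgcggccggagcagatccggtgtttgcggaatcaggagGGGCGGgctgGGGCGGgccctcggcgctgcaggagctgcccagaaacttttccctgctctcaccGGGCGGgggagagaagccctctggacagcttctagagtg
ITGA5: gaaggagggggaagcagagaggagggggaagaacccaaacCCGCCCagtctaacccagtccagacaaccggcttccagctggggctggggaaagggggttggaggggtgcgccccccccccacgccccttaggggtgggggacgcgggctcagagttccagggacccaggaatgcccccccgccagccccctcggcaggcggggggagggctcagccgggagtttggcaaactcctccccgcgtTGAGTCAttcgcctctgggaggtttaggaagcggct
ITGA2 held 4 GC boxes and 26 CpG dinucleotides. ITGA5 held 1 GC box, 14 CpG and 1 AP-1 match that begins 6 bases before the start. ITGB5, also bright and lowest in replicate 3, had 3 windows, with 3, 1 and 2 GC boxes and 0 AP-1 matches. ITGA3 and ITGB4, likewise bright and lowest in replicate 3, had no window. Of the bright genes not lowest in replicate 3, ITGA6 and ITGB1 each had 2 windows, with 0 and 3 GC boxes. Those windows held 9 and 34 CpG for ITGA6, and 4 and 36 for ITGB1. The 2 windows of ITGAV held 0 GC boxes, with 21 and 1 CpG. GC boxes thus occurred in bright genes with and without the low replicate 3, and a link to that order was not tested. Of the 35116 windows of this length in the table, 44.1% held a GC box, 7.35% an AP-1 match and 11.2% a TATA box, and the median window held 13 CpG. A match is a stretch of letters and no evidence of binding in these cells.

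ITGA3 and ITGA6 are alpha chains known mainly from laminin receptors. ITGA3 (ENSG00000005884), which pairs with ITGB1 in a receptor for epithelial laminins, gave 12.68, 12.77 and 12.51 in replicates 1, 2 and 3 (mean 12.65 ± 0.13, SD, n = 3). Replicate 3 was again the lowest. ITGA6 (ENSG00000091409), which pairs with either ITGB1 or ITGB4, gave 11.30, 11.20 and 11.37 in replicates 1, 2 and 3 (mean 11.29 ± 0.08, SD, n = 3). Its order was the other way round, with replicate 3 the highest and replicate 2 the lowest.

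ITGAV (ENSG00000138448), the alpha chain of vitronectin and other RGD-binding receptors, was steady at 9.56, 9.47 and 9.55 in replicates 1, 2 and 3, a mean of 9.53 ± 0.05 (SD, n = 3). It stood at least 2.66 log2 units above the array median and below the 90th percentile on each array. ITGA4 (ENSG00000115232), which with ITGB1 binds VCAM1 and fibronectin and is best known from leukocytes, was at 5.23, 5.28 and 5.21 in the same order (mean 5.24 ± 0.04, SD, n = 3). Relative to their array's median its 3 values lay at -1.61 to -1.53 log2 units. A dim value does not show that the transcript is absent, since RMA compresses differences near the lower end of the scale.

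ITGB1 (ENSG00000150093), which can pair with all 6 alpha chains of the list, was among the steadiest members. Its values were 11.31, 11.37 and 11.38 in replicates 1, 2 and 3, a range of 0.07 log2 units or 1.05-fold (mean 11.36 ± 0.04, SD, n = 3). A range at least as wide was found in 86.9% of the brighter genes, the 12111 genes above the median on all 3 arrays.

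ITGB4 (ENSG00000132470) was the least steady. Its long cytoplasmic tail differs from those of the other beta chains, and in epithelia it links laminin through plectin to keratin filaments in hemidesmosomes. Replicate 1 gave 10.67, replicate 2 gave 10.93 and replicate 3 gave 10.18 (mean 10.59 ± 0.38, SD, n = 3). The 3 arrays were all apart, with replicate 3 below replicate 1 by 0.49 log2 units and below replicate 2 by 0.75. The range was 1.68-fold, and only 54 of the 12111 brighter genes (0.446%) ranged as widely or more. The range of ITGB4 was 0.26 log2 units without replicate 3 and 0.49 without replicate 2.

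ITGB5 (ENSG00000082781), which forms a vitronectin receptor with ITGAV, was at 10.94 in both replicates 1 and 2 and at 10.65 in replicate 3 (mean 10.85 ± 0.17, SD, n = 3). It matched the ITGA2 order of 2 close arrays and a lower replicate 3. ITGB6 (ENSG00000115221), an epithelial chain whose dimer with ITGAV is known for activating latent TGF-beta, gave 4.88, 4.87 and 4.85 in replicates 1, 2 and 3. It was dim on all 3 arrays, at -1.95 to -1.93 log2 units relative to the median, and its SD of 0.017 was the smallest of the 10.

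The windows around the annotated starts of the 2 dim members are shown because they differ strongly in base composition. They were cut and marked as above, from chr2:181457136-181457415 (plus strand, ITGA4) and chr2:160200243-160200522 (minus strand, ITGB6) of GRCh38.p14.
ITGA4: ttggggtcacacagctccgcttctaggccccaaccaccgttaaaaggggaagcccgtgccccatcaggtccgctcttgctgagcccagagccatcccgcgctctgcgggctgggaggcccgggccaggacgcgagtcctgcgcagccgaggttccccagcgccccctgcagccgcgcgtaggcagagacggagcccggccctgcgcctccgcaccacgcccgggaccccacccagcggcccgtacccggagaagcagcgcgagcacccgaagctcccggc
ITGB6: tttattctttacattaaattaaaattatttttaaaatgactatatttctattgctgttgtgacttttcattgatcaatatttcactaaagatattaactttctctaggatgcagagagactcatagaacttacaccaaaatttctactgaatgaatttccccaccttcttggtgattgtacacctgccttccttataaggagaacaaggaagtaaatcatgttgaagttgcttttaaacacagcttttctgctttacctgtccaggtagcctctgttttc
The ITGA4 window was 72.9% G or C with 29 CpG, and the ITGB6 window was 32.1% G or C with 0 CpG, as in 4.71% of all windows. Neither held any of the 3 motifs. The dim signals thus came with a CpG-rich window in one gene and a CpG-free window in the other. Windows were found for 8 of the 10 members.

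Replicates 1 and 2 were close to each other for most integrins, and ITGA2, ITGA3, ITGA5, ITGB4 and ITGB5 were each lowest in replicate 3 by 0.17 log2 units or more. Replicate 3 was the lowest array for 7 of the 10 members, against 37.9% of all genes. Among the 8 bright members it was the lowest for 5, and the share over the brighter genes was not computed, so that count has no background. For the dim ITGA4 and ITGB6 it was only 0.02 log2 units below the next array. Below both other arrays by over 0.2 log2 units, replicate 3 stood for 4 members (ITGA2, ITGA5, ITGB4 and ITGB5). That compares with 6.01% of all genes and 7.81% of the brighter ones, and ITGA3 missed the limit with gaps of 0.17 and 0.26. No member had replicate 3 above both others by over 0.2 units, against 5.67% of all genes, which for 10 members is near that share. At a limit of 0.1, replicate 3 was below both others for 5 members, against 15.9% of all genes. At 0.3 it was below them for 2 members, against 2.28%. These limits were chosen after the values were seen.

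**Figure D2:**
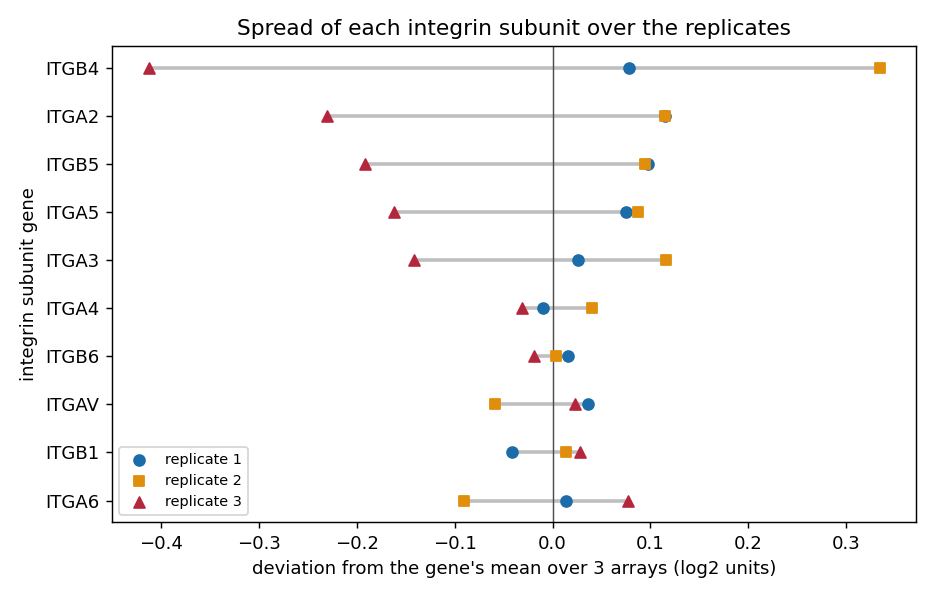
Deviation of each replicate from the gene's mean over the 3 arrays (log2 units, horizontal axis) for the 10 integrin subunit genes, ordered by how far replicate 3 lies from the mean of the other arrays. Replicate 3 (triangles) is the lowest array for the 7 genes in the upper rows, though by only 0.02 units for the dim ITGA4 and ITGB6. ITGB4 spans 0.75 log2 units.

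The median of replicate 3 minus the mean of replicates 1 and 2 was -0.13 log2 units over the members and -0.01 over all genes. Among the 8 bright members it was -0.23, against 0.0005 over the brighter genes. Between replicates 2 and 1 the median signed difference was 0.01 over the members and -0.01 over all genes, and the median absolute difference was 0.05 and 0.08. Replicate 3 was the farthest array from the middle value for 6 of the 10 members, against 41.7% of all genes. Among the 8 bright members it was the farthest for 5, against 50.0% of the brighter genes, a count near that share. Over all genes replicate 2 was the farthest for 31.3% and replicate 1 for 27.0%, and the part of replicate 3's distance in the integrin values was not tested. Members share the same 3 RNA samples and are not replicates of one another.

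Ranges differed widely among the members. The median SD was 0.11 log2 units over the 10 members and 0.09 over all genes. Only ITGA2 and ITGB4 ranged over more than 0.3 log2 units, 2 of 10 against 16.8% of all genes, a share near that background. With a limit of 0.5 it was 1 of 10, ITGB4, against 3.52% of all genes. At a limit of 0.2 it was 5 of 10, with ITGA3, ITGA5 and ITGB5 added, against 38.4%. Without replicate 3, 0 of the 10 members ranged over 0.3 units. That compares with 5.48% of all genes and 2.53% of the brighter ones, a count near those shares. The median SD without replicate 3 was 0.037 over the 10 members, 0.06 over all genes and 0.053 over the brighter genes. A range over 2 arrays cannot exceed that over 3, so such values compare only with those of all genes or the brighter genes in the same arrays.

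**Figure D3:**
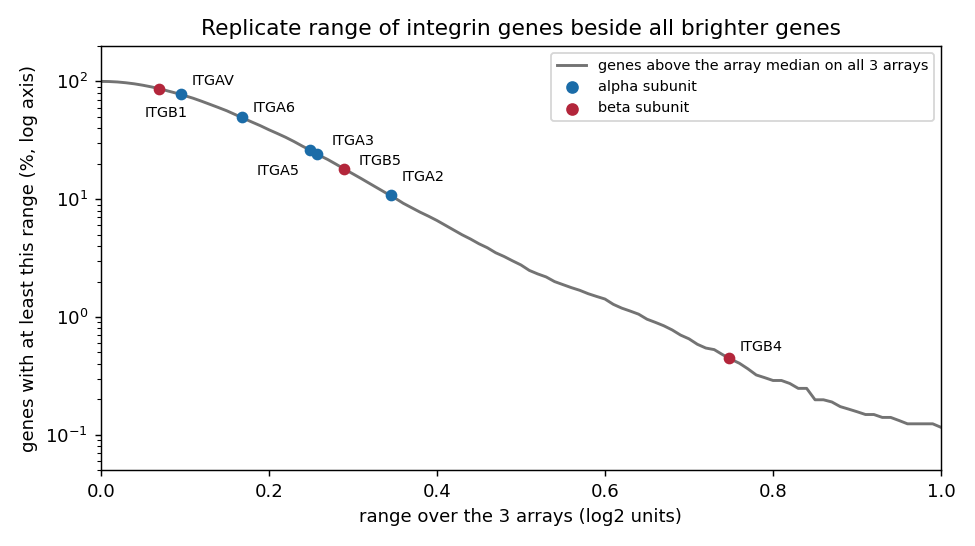
Share of brighter genes (%, vertical log axis) whose range over the 3 arrays is at least the value on the horizontal axis (log2 units), with the 8 bright integrin subunits placed on the curve. ITGB4 sits at 0.446% and ITGB1 at 86.9%.

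Because integrins work as pairs, the difference of alpha minus beta log2 values was followed over the arrays for 9 known pairs. These are RNA signals, and neither subunit protein nor assembled receptors were measured. The size of the difference on one array mixes in probe differences. A constant offset between probes cancels in the change of that difference between arrays. The compression of dim signals does not cancel, which touches the pairs with ITGA4 or ITGB6. ITGA6 minus ITGB4, for the chains of the laminin receptor of hemidesmosomes, changed most, with a range of 0.92 log2 units or 1.89-fold in the ratio. It was lowest in replicate 2 and highest in replicate 3, since ITGA6 was high where ITGB4 was low. Most of this range was that of ITGB4, which alone ranged over 0.75 units, against 0.17 for ITGA6. ITGA6 minus ITGB1, for the chains of the other ITGA6 receptor, ranged over 0.16 units.

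The difference ranged over 0.42 log2 units for the collagen receptor pair ITGA2 and ITGB1, and over 0.31 for the fibronectin receptor pair ITGA5 and ITGB1. In both it was lowest in replicate 3, where the alpha chain was low and ITGB1 was not. For ITGAV and ITGB5 the range was 0.37 units with replicate 3 the highest, where ITGB5 was low. The other pairs, ITGA3, ITGA4 and ITGAV with ITGB1 and ITGAV with ITGB6, ranged over 0.27, 0.09, 0.15 and 0.10 units. Pairs share chains, 6 of them ITGB1, so they are not independent. Leaving out an array can only narrow a range or leave it unchanged, and ranges of other gene pairs were not computed. Without replicate 3 the ranges were 0.36 for ITGA6 and ITGB4, 0.09 for ITGAV and ITGB5, and 0.06, 0.03, 0.01 and 0.04 for ITGA2, ITGA3, ITGA4 and ITGA5 with ITGB1. Without replicate 2 they were 0.56 for ITGA6 and ITGB4, 0.01 for ITGA6 and ITGB1, 0.08 for ITGAV and ITGB1, and 0.02 for ITGAV and ITGB6. Without replicate 1 the range was 0.07 for ITGAV and ITGB1.

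**Figure D4:**
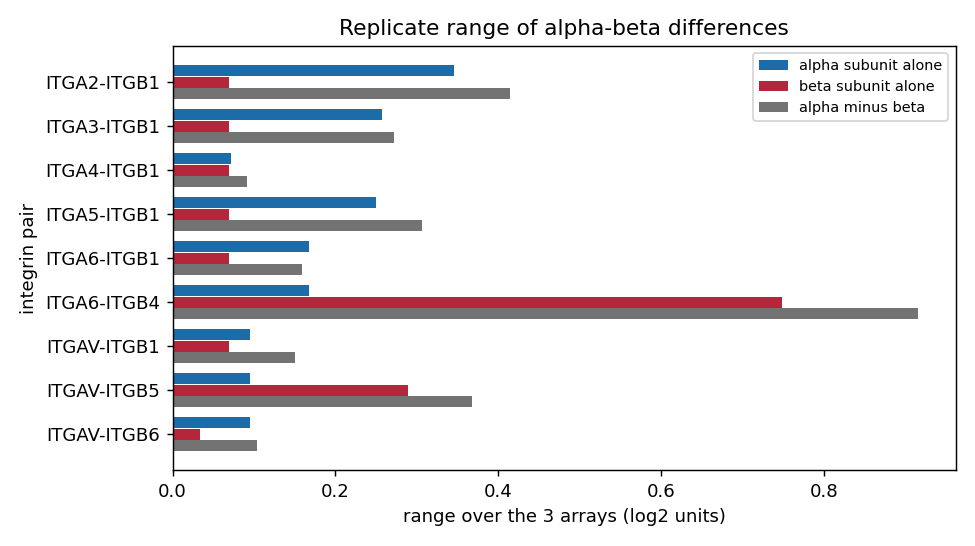
Range over the 3 arrays (log2 units, horizontal axis) of the alpha subunit alone, the beta subunit alone, and the alpha minus beta difference for 9 integrin pairs. The difference of ITGA6 and ITGB4 has a range of 0.92 units, and that of ITGA4 and ITGB1 one of 0.09.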

How the data were processed

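Total RNA of 3 cultures was hybridised to Affymetrix arrays after Trizol extraction and biotin labelling, per the labels' protocols. The deposited values are 1 log2 expression value per gene and array, made by the authors with RMA and the affy package, per the submitters' processing notes. Not given in the sources used here are the array model, the probe-to-gene definition and the build. RMA pulls arrays towards a common distribution, so an overall change in RNA content cannot be seen.

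The 10 members were found by identifier. Members, lists and limits were chosen with earlier results of these data known. The named genes are those 10. Lists of other integrins, adhesion adaptors and cell markers were not used, because 0 of the 59792 genes in the reference table carried an Ensembl identifier. SDs, ranges and alpha minus beta differences were computed from the values as deposited. The counting code was checked on simulated data with less noise than these arrays. That check does not show how the limits behave at the noise of these arrays. Alternatives were quantile, cyclic loess and median-centred values, other limits, and leaving out each replicate. Arrays have no depth, so n = 3 limits the precision. Tools were Python 3.11.15, pandas 2.3.3, numpy 2.4.6, R 4.3.3 and limma 3.58.1. Promoter windows came from the RefSeq table (GRCh38.p14).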

Additional observations from a re-analysis of the deposited data

How the results depend on the processing

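The 8 members above the array median stayed the same 8 genes with the array mean as the limit, with at least 2 of 3 arrays, and with each replicate left out. The 6 above the 90th percentile became 7, with ITGB4, without replicate 3, with at least 2 of 3 arrays, and at the 80th percentile. The 2 members with a range over 0.3 log2 units became 3, with ITGB5, after quantile or cyclic loess normalisation. The count was 5 at a limit of 0.2, 1 at a limit of 0.5, and between 0 and 2 with a replicate left out. The median SD of 0.11 went from 0.037 without replicate 3 to 0.15 without replicate 1. The 4 members with replicate 3 below both others by over 0.2 units were the same 4 genes under the 3 normalisations run. They became 5 at a limit of 0.1 and 2 at a limit of 0.3. These alternatives for that count, and those for the range of ITGB4, were chosen after seeing the data. Replicate 3 was the farthest array for 6 members under each normalisation, with ITGA6 in place of ITGB6 when arrays were centred on their medians. Means of members moved by at most 0.0045 under the normalisations and by at most 0.21, for ITGB4, with a replicate left out. Pair ranges moved by at most 0.04 under the normalisations. No paired analysis was possible because every array belongs to the same group.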
